A study of Mus musculus with 12 samples.

Results

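The transcriptome of type 1 conventional dendritic cells (cDC1) from mice without Flt3 ligand was compared with that of wild-type cDC1. The arrays were chosen by their titles: 2 of Flt3L KO cDC1 and 2 of WT cDC1, which makes 4 of the 12 arrays in the series. The cells were mature cDC1 sorted from spleens at steady state, after digestion with collagenase and DNase, and each array is labelled as a biological replicate. WT mice carry both genes, Flt3L KO mice lack the ligand gene Flt3l, and Flt3 KO mice lack its receptor gene. Flt3 KO cDC1, and type 2 cells (cDC2) of WT and Flt3L KO spleens, served as points of reference with 2 arrays each. The labels give no strain, age, number of mice pooled or deleted part of Flt3l. Values are deposited intensities of a GeneChip gene array on a linear scale, differences are on the log2 scale with the standard error (SE) from limma, and a gene was called at a Benjamini-Hochberg adjusted p under 0.05.

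FLT3 is a receptor tyrosine kinase carried by dendritic cell progenitors and by conventional dendritic cells. Its ligand brings receptor chains together, and the active receptor feeds the RAS-ERK, PI3K-mTOR and STAT pathways that support growth and survival of the lineage. Mice without the ligand are known to hold few dendritic cells, so the cells sorted here are those that such mice still have. The cDC1 branch depends on the transcription factors IRF8 and BATF3 and is known for taking up dead cells and presenting their antigens to CD8 T cells.

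The cells labelled Flt3L KO cDC1 carried genes that define the branch. Of 31 cDC1 markers tested, 3 were called lower (Cd207, Tlr3 and Cd36, 9.68%) and 1 higher (Gpr33, 3.23%), as described below. Over all genes tested, 0.415% were called lower and 0.776% higher. Xcr1, a chemokine receptor of cDC1, had intensities of 2799 and 2956 on the WT arrays and 2421 and 2469 on the Flt3L KO arrays (log2 difference -0.23 ± 0.11, adjusted p = 0.283 in limma). Irf8 read 3009 and 3090 in WT and 3368 and 3146 in Flt3L KO (adjusted p = 0.603), against 311 and 275 in WT cDC2. Clec9a, a receptor for dead-cell material, had a log2 difference of -0.16 ± 0.12 (adjusted p = 0.549), and Batf3 one of -0.09 ± 0.08 (adjusted p = 0.610). In Xcr1, Clec9a and Batf3 both Flt3L KO arrays lay below both WT arrays, and in Irf8 both lay above, by differences that did not pass the test. Such a gap between the groups, in either direction, was found for 6435 of 14953 genes tested. Sirpa, which marks cDC2, read 103 to 149 on the 4 cDC1 arrays and 3585 and 3674 in WT cDC2, so little of its cDC2 level was present in either group.

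The receptor gene Flt3 read 2333 and 2265 in WT cDC1 and 2426 and 2456 in Flt3L KO cDC1. Both Flt3L KO values lay above both WT values, by a log2 difference of 0.09 ± 0.07 that did not pass the test (adjusted p = 0.572). On the Flt3 KO cDC1 arrays the same probe set read 357 and 370. Flt3l itself read 114 and 113 in WT cDC1 and 119 and 129 in Flt3L KO cDC1 (log2 difference 0.13 ± 0.08, adjusted p = 0.403). In cDC2 it was lower in Flt3L KO than in WT, by a log2 difference of -0.37 (adjusted p = 0.0267; 0.0563 to 0.209 without any 1 cDC2 array). No source used here gives the deleted part of Flt3l, so this probe set does not check the label. The 10 tested genes on each side of Flt3l in chromosome order had adjusted p between 0.106 and 0.952.

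One WT array, replicate 1, had a lower quartile of 25.7, while on every other array of the series this quartile lay between 23.3 and 24.3. The standard deviation over genes of the log2 difference between the 2 replicates was 0.21 in WT cDC1, 0.144 in Flt3L KO cDC1 and 0.131 to 0.154 in the other groups. Of 14953 genes tested, limma called 178 (1.19%), with 116 higher (0.776%) and 62 lower (0.415%) in Flt3L KO cDC1. An unadjusted p under 0.05 was reached by 2558 genes. Most called changes were under 2-fold: 3 rises and 5 falls were larger. The count of calls was 89 without WT replicate 1, 606 without WT replicate 2, 25 without Flt3L KO replicate 1 and 68 without Flt3L KO replicate 2. All 178 kept their direction in each of these fits, and 20 (11 rises and 9 falls) kept their call in every one. For all 116 rises and 62 falls the 2 groups did not overlap, so leaving out 1 array could not change a direction. Among all 14953 genes tested, 6435 had groups that did not overlap. The plot of all tested genes sets the size of each difference against its p.

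**Figure D1:**
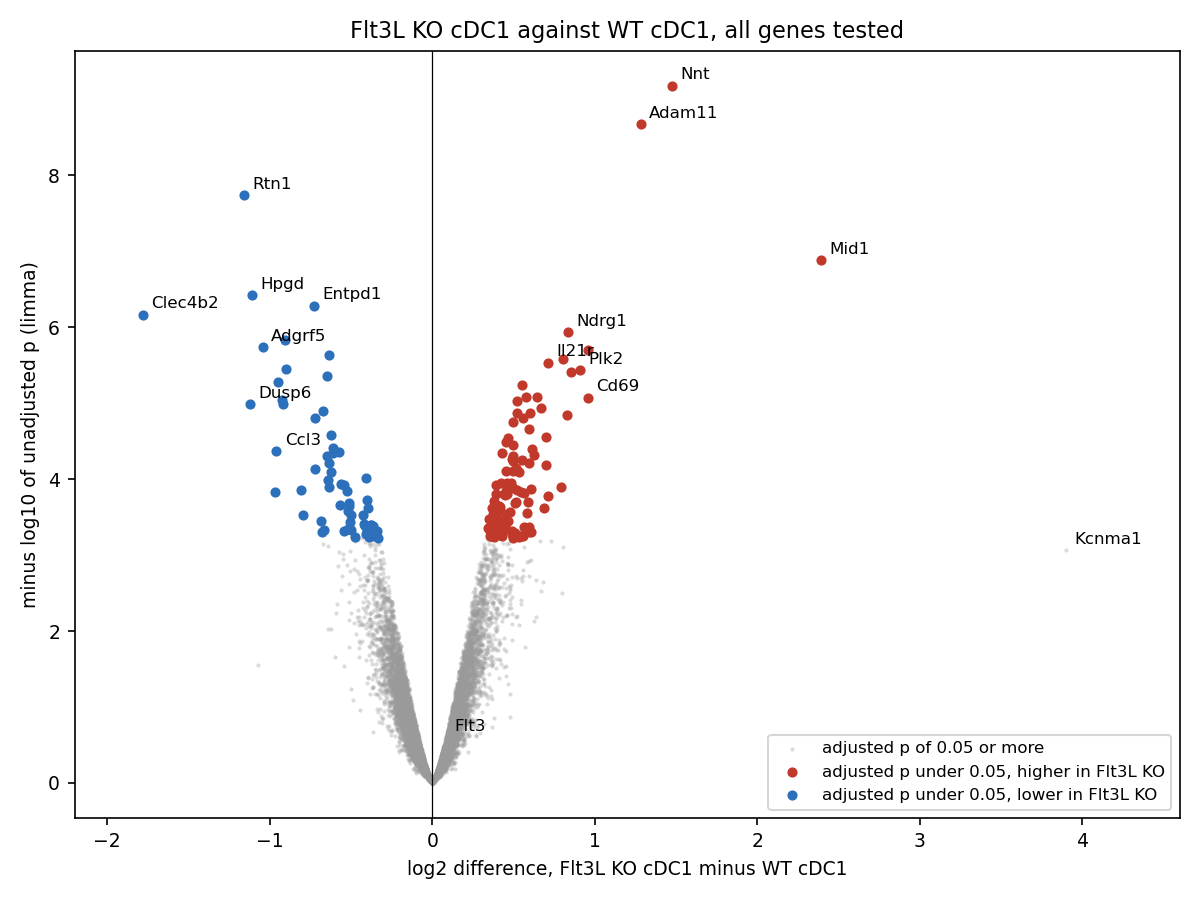
Each point is 1 of 14953 genes; the horizontal axis is the log2 difference between Flt3L KO cDC1 and WT cDC1 (2 arrays each) and the vertical axis is minus log10 of the unadjusted limma p. The 116 called rises (red) reach 2.39 for Mid1 and the 62 called falls (blue) reach -1.78 for Clec4b2, while Kcnma1 has the largest difference, 3.90, and was not called.

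The largest fall was in Clec4b2, and several smaller falls were also in genes of surface receptors. Clec4b2, a C-type lectin receptor, read 243 and 320 in WT cDC1 and 63.1 and 104 in Flt3L KO cDC1, a 3.44-fold fall (log2 -1.78 ± 0.20, adjusted p = 0.00146). The 2 groups did not overlap, as in every called gene, and the Flt3 KO cDC1 arrays read higher than both, at 366 and 370. Adgrf5, an adhesion G protein-coupled receptor, read 51.9 and 68.3 in WT and 27.7 and 30.2 in Flt3L KO, a 2.06-fold fall (adjusted p = 0.0027). Timd4, a receptor for phosphatidylserine on dead cells, read 239 and 256 in WT and 131 and 133 in Flt3L KO, a 1.87-fold fall (adjusted p = 0.00246). These 3 genes remained called without each of the 4 arrays in turn.

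Cd207, which encodes the lectin langerin, read 318 and 225 in WT and 113 and 166 in Flt3L KO, a 1.96-fold fall (adjusted p = 0.0277). Its replicates were spread within each group, and its adjusted p was 0.105 without WT replicate 1 and 0.209 without Flt3L KO replicate 1. Fcrla, an Fc receptor-like gene best known from B cells, read 296 and 299 in WT and 136 and 175 in Flt3L KO (log2 -0.95 ± 0.13, adjusted p = 0.00409). Adgrl3, a latrophilin-type adhesion receptor, read 139 and 143 in WT and 66.0 and 83.6 in Flt3L KO (adjusted p = 0.00561). In both genes the Flt3L KO replicate 1 was the lowest of the 4 arrays; without it the adjusted p was 0.052 for Fcrla and 0.085 for Adgrl3.

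Promoters are shown for the gene with the largest fall, for Dusp6 and Cd207, and for Plk2 among the rises, as examples of the lectin and immediate early genes with values given here. Sequences are from RefSeq on build GRCm38.p6, 250 bases before to 50 bases after the annotated start, written 5′ to 3′ on the gene's own strand. Capitals mark a match to 1 of 5 motifs searched on both strands.
Clec4b2, chr6:123172773-123173072, plus strand: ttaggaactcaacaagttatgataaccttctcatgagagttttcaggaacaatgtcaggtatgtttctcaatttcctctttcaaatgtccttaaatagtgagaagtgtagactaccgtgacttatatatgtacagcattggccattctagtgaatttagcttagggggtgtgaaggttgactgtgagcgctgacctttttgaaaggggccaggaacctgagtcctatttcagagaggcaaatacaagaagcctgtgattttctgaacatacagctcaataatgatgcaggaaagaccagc
Dusp6, chr10:99262981-99263280, plus strand: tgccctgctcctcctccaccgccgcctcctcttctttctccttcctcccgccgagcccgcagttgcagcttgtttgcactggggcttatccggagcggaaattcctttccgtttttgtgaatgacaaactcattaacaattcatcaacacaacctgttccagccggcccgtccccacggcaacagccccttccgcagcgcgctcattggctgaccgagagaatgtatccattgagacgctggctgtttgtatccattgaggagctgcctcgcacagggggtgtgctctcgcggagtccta
Cd207, chr6:83677808-83678107, minus strand: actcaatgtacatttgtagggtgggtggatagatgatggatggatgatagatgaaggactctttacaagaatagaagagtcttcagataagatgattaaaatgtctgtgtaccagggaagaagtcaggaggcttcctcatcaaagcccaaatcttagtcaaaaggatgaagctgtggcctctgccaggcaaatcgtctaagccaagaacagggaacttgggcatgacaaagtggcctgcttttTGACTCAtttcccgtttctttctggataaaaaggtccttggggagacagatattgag
Plk2, chr13:110394794-110395093, plus strand: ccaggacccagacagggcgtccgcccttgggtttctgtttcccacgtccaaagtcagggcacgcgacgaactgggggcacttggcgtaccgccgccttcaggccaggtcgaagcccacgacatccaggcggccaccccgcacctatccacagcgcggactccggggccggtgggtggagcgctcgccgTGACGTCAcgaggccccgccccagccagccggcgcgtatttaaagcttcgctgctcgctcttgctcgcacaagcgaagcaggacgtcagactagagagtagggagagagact
The capitals in Cd207 are an AP-1 match (TGANTCA) at bases -7 to -1 from the start, and those in Plk2 a cyclic AMP response element (CRE, TGACGTCA) at bases -62 to -55. No match to these or to the STAT (TTCNNNGAA) or ETS (CCGGAAG) letters or to the ETS-IRF composite lies in the other sequences shown. By symbol, 136 of the 178 called genes had a promoter in the table, 88 that rose and 48 that fell. The CRE letters were in 1.79% of all 32851 promoters, in 4 of 118 promoters of genes that rose (3.39%) and in 5 of 65 of genes that fell (7.69%). The AP-1 letters were in 7.81%, 9.32% and 6.15% of these sets, the STAT letters in 8.3%, 8.47% and 4.62%, the ETS letters in 8.86%, 12.7% and 6.15%, and the composite in 2.72%, 2.54% and 3.08%. These are matches of letters in a window, and some genes have more than 1 promoter.

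Among intracellular genes, Dusp6, the phosphatase that ERK induces and that in turn switches ERK off, read 225 and 247 in WT and 122 and 96.6 in Flt3L KO. The fall was 2.17-fold (log2 -1.12 ± 0.16, adjusted p = 0.00569), with an adjusted p of 0.0534 without Flt3L KO replicate 2. Rtn1, a reticulon of the endoplasmic reticulum, read 657 and 645 in WT and 274 and 310 in Flt3L KO, a 2.23-fold fall with the smallest adjusted p among the falls (9.04e-05). Hpgd, which breaks down prostaglandins, read 214 and 190 in WT and 95.2 and 91.7 in Flt3L KO, a 2.16-fold fall (adjusted p = 0.00113). Replicates of Rtn1 and Hpgd lay close together in both groups.

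Enzymes and receptors that act on lipid and nucleotide mediators were among the other falls. Entpd1, which encodes the ATP-degrading ectoenzyme CD39, read 513 and 570 in WT and 332 and 320 in Flt3L KO, a 1.66-fold fall (adjusted p = 0.0013). Dpep2, a membrane dipeptidase, fell 1.87-fold (adjusted p = 0.00344), and Cysltr1, a receptor for cysteinyl leukotrienes, fell 1.74-fold (adjusted p = 0.0408). A second, dimmer probe set of Dpep2 differed by -0.41 on the log2 scale, against -0.90 on the one used. Rtn1, Hpgd, Entpd1 and Dpep2 kept their calls without each array, whereas the adjusted p of Cysltr1 was 0.0695, 0.0983 and 0.183 without WT replicate 2, Flt3L KO replicate 1 and Flt3L KO replicate 2. Arhgap42, a GTPase-activating protein, fell by 0.92 ± 0.13 on the log2 scale (adjusted p = 0.00569, and 0.085 without Flt3L KO replicate 1). Its other probe set, which is dimmer, differed by -0.14. A3galt2, a glycosyltransferase, fell by 0.81 ± 0.15 (adjusted p = 0.0272, and 0.103 and 0.209 without WT replicate 1 and Flt3L KO replicate 1).

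The gene with the largest called rise was Mid1, a microtubule-associated ubiquitin ligase. It read 170 and 183 in WT cDC1 and 1068 and 804 in Flt3L KO cDC1, a 5.26-fold rise (log2 2.39 ± 0.23, adjusted p = 0.000492). The Flt3 KO cDC1 arrays read 97.0 and 135, below WT. Nnt, the mitochondrial transhydrogenase that makes NADPH, read 115 and 117 in WT and 323 and 320 in Flt3L KO, a 2.78-fold rise (adjusted p = 9.85e-06). Its Flt3 KO cDC1 arrays read 362 and 327, beside the Flt3L KO values. Nnt is known to carry a deletion in one widely used laboratory substrain of mice; the labels name no strain, so strain and genotype cannot be told apart for this gene, nor for Mid1 or any other gene here. Adam11, a member of the ADAM family without protease activity, read 69.2 and 68.4 in WT and 171 and 163 in Flt3L KO, a 2.43-fold rise (adjusted p = 1.57e-05), with 116 and 98.8 in Flt3 KO cDC1. These 3 genes kept their calls without each of the 4 arrays.

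Kcnma1, a calcium-activated potassium channel gene named after its values were seen, had the largest difference of all but was not called. It read 19.2 and 15.7 in WT cDC1 and 689 and 96.9 in Flt3L KO cDC1, a log2 difference of 3.90 ± 0.90 (adjusted p = 0.0599). The Flt3L KO arrays lay far above WT and also far apart from each other. In Flt3L KO cDC2 the pattern was alike, with 953 on replicate 1 and 87.6 on replicate 2, against 13.7 and 16.8 in WT cDC2. There the difference was called (adjusted p = 0.0308 in limma). It was not called without WT cDC2 replicate 1, WT cDC2 replicate 2 or Flt3L KO cDC2 replicate 1. A second probe set assigned to Kcnma1, which is dimmer, differed by 0.34 in cDC1. Whether the brighter probe set reads Kcnma1 was not checked here.

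Other rises were smaller. Cd69, an early activation antigen that holds lymphocytes in tissue, read 82.3 and 112 in WT and 198 and 176 in Flt3L KO, a 1.94-fold rise (adjusted p = 0.00549). Plk2, a polo-like kinase induced by stimulation, read 73.2 and 94.2 in WT and 151 and 161 in Flt3L KO, a 1.88-fold rise (adjusted p = 0.00344). Ndrg1, a gene induced by stress and low oxygen, read 438 and 439 in WT and 848 and 721 in Flt3L KO, a 1.78-fold rise (adjusted p = 0.00215). For all 3 genes both Flt3L KO arrays exceeded both WT arrays, as in every called rise. Groups that did not overlap, in either direction, were found for 6435 of the 14953 genes tested. Vdr, the vitamin D receptor, rose 1.78-fold from 59.1 and 79.9 to 129 and 115 (adjusted p = 0.00661). Casp4, an inflammatory caspase that senses lipopolysaccharide, rose 1.75-fold from 84.2 and 95.9 to 168 and 147 (adjusted p = 0.00301). Without Flt3L KO replicate 1 the adjusted p was 0.085 for Cd69 and 0.0983 for Vdr, while Plk2, Ndrg1 and Casp4 kept their calls without each array.

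Among the other large rises, Gtf3c5, a subunit of an RNA polymerase III factor, rose by 0.85 ± 0.11 on the log2 scale (adjusted p = 0.00347) and kept its call without each array. Cd7, better known from T cells and cDC2, rose 1.73-fold from 279 and 350 to 645 and 452 (adjusted p = 0.0266; 0.0988 without WT replicate 1 and 0.185 without Flt3L KO replicate 1). Niban2 rose by 0.71 ± 0.14 (adjusted p = 0.0293), Ffar4, a receptor for long-chain fatty acids, by 0.70 ± 0.11 (adjusted p = 0.0108), Castor2, of the arginine-sensing CASTOR family, by 0.70 ± 0.12 (adjusted p = 0.0175) and Gbp5, a guanylate-binding protein, by 0.69 ± 0.14 (adjusted p = 0.0359). These 4 lost their calls when single arrays were left out. Their adjusted p was 0.168, 0.0983, 0.0983 and 0.124 without Flt3L KO replicate 1, and 0.12, 0.0624, 0.0982 and 0.166 without Flt3L KO replicate 2. It was also 0.0548 for Niban2 without WT replicate 2, and 0.0526 for Ffar4 and 0.0796 for Gbp5 without WT replicate 1. The plot of values by array shows the 15 largest rises and falls beside the Flt3 KO cells.

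**Figure D2:**
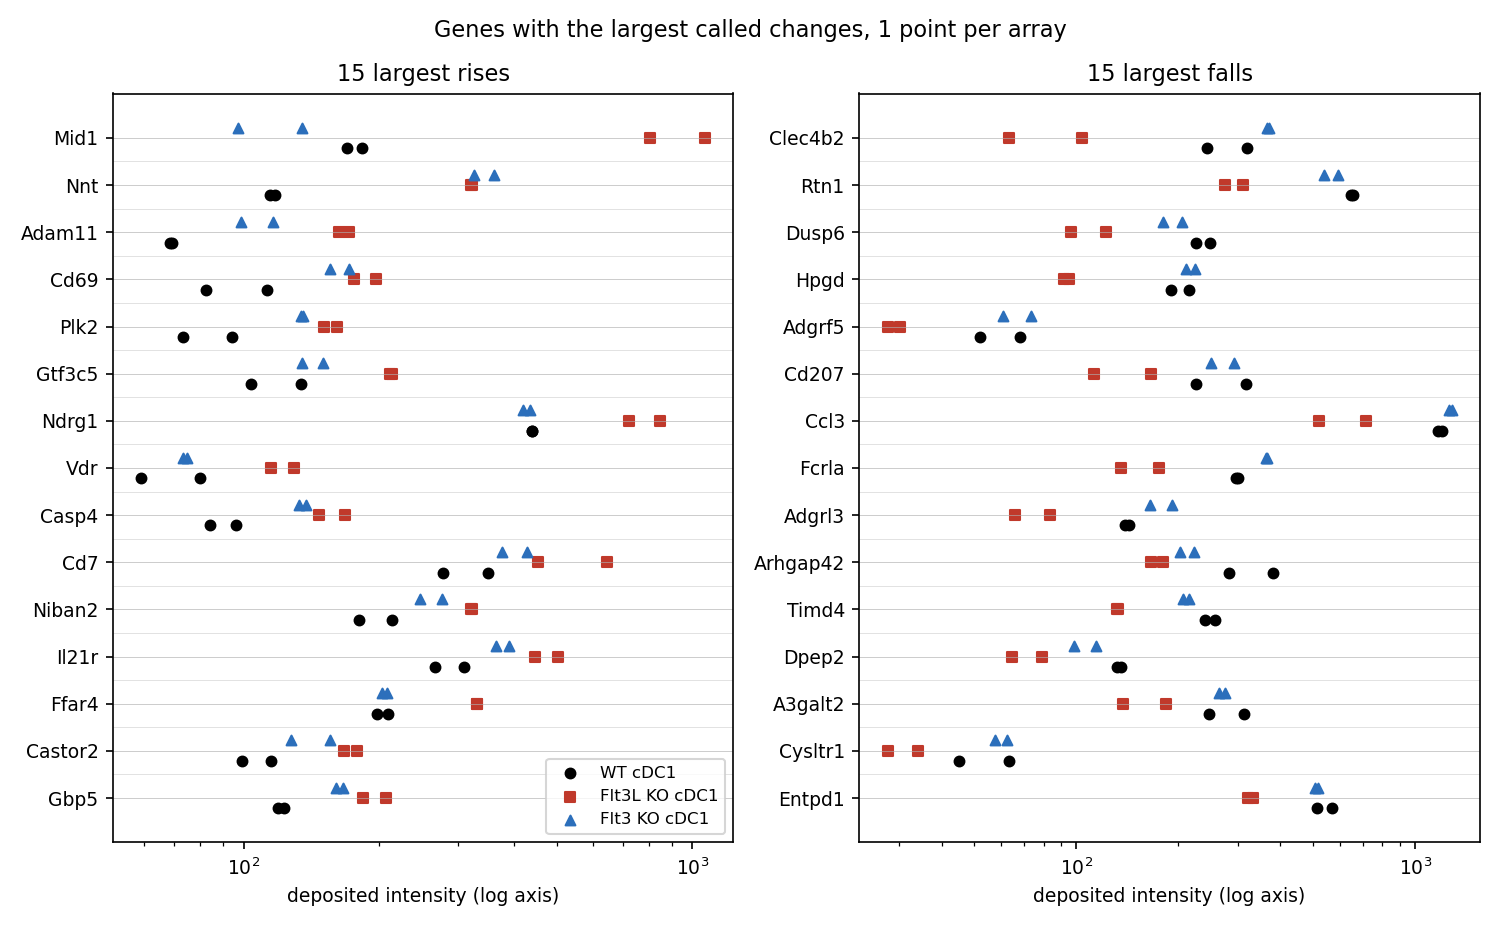
Deposited intensity on a log axis for the 15 largest called rises (left) and falls (right), 1 point per array, for WT cDC1, Flt3L KO cDC1 and Flt3 KO cDC1 (2 arrays each). The genes were chosen by this difference; Mid1 reads 804 and 1068 in Flt3L KO against 170 and 183 in WT, and Clec4b2 reads 63.1 and 104 against 243 and 320.

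The pathway downstream of FLT3 was examined through a list of receptor, adaptor, PI3K, mTOR and RAS-ERK genes. Of 33 members tested, 1 rose and 0 fell, with a median log2 difference of 0.07 beside -0.01 over all genes tested. Calls over all genes tested, 0.776% higher and 0.415% lower, are the shares to set beside this and the list counts below. Of all 14953 genes tested, 46.9% were above 0. An unadjusted p under 0.05 in limma was reached by 1413 genes above 0 and 1145 below. The riser was Rptor, the raptor subunit of mTOR complex 1, which read 385 and 386 in WT and 493 and 493 in Flt3L KO (log2 0.36 ± 0.08, adjusted p = 0.049). Its adjusted p was 0.101, 0.228 and 0.164 without WT replicate 1, Flt3L KO replicate 1 and Flt3L KO replicate 2. Tsc1, an inhibitor of mTOR, had a log2 difference of 0.41 ± 0.10 (adjusted p = 0.079). Kit, the related receptor for stem cell factor, read 2861 and 2917 in WT and 3494 and 3413 in Flt3L KO (adjusted p = 0.117), and Foxo1, a transcription factor held back by AKT, had a difference of -0.30 ± 0.10 (adjusted p = 0.158).

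Immediate early genes and feedback inhibitors of ERK moved in both directions. Of 44 tested, Cd69 and Plk2 rose while Dusp6, Ier3 and Btg2 fell, and the median was -0.08. The median was 0.01 without Flt3L KO replicate 1. Ier3, an early response gene linked to survival, read 118 and 125 in WT and 74.7 and 77.5 in Flt3L KO, a difference of -0.67 ± 0.10 on the log2 scale (adjusted p = 0.00648, and 0.0858 without Flt3L KO replicate 1). Btg2, an antiproliferative gene, fell by 0.39 ± 0.08 (adjusted p = 0.0494) and had an adjusted p of 0.07 to 0.302 when any of the 4 arrays was left out.

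Called genes among receptors and signal transducers of cytokines were few, and all were rises. Of 26 cytokine and growth factor receptors tested, 2 rose (7.69%) and 0 fell, beside 0.776% and 0.415% of all genes tested. The median was 0.09. In limma, 6 were above 0 and 1 below at an unadjusted p under 0.05. Il21r, the receptor for IL-21, read 310 and 268 in WT and 445 and 501 in Flt3L KO, a 1.64-fold rise (adjusted p = 0.00312). Il4ra, the receptor chain shared by IL-4 and IL-13, read 948 and 1004 in WT and 1397 and 1471 in Flt3L KO, a 1.47-fold rise (adjusted p = 0.00426). Both kept their calls without each array. Of 22 STAT and SOCS genes, 2 rose (9.09%) and 0 fell, with a median of 0.12. Stat4, which signals for IL-12, rose 1.48-fold from 219 and 212 to 311 and 326 (adjusted p = 0.0282; 0.0675, 0.136 and 0.134 without WT replicate 1, Flt3L KO replicate 1 and Flt3L KO replicate 2). Socs6, a SOCS protein known to bind receptor tyrosine kinases, rose by 0.37 ± 0.08 (adjusted p = 0.0494), but its other probe sets differed by 0.07 and -0.02. Its adjusted p was 0.145, 0.215 and 0.181 without the same 3 arrays.

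In the NF-kB list 2 of 21 genes rose and 0 fell, and the median was 0.23. Relb, a subunit active in mature dendritic cells, read 450 and 427 in WT and 602 and 633 in Flt3L KO, a 1.41-fold rise (adjusted p = 0.013, and 0.085 without either Flt3L KO array). Tnip1, which restrains NF-kB, rose by 0.37 ± 0.08 (adjusted p = 0.0489; 0.0512 to 0.234 without any 1 array). Tnf had a difference of -0.40 ± 0.11 (adjusted p = 0.0945). Of 33 interferon-stimulated genes Gbp5 rose and 0 fell; 27 were above 0 and the median was 0.21. Rsad2 and Ifi27l2a had larger or similar differences, 0.73 ± 0.16 and 0.66 ± 0.15, that missed the threshold (adjusted p = 0.0525 for both). The median of this list was 0.09 without Flt3L KO replicate 1 and 0.32 without Flt3L KO replicate 2, so replicate 1 carried the higher values.

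The 2 called chemokine genes were falls. Of 27 chemokines and receptors tested, 2 fell (7.41%) and 0 rose, beside 0.415% and 0.776% of all genes tested. The median was -0.04, and 12 members were above 0. In limma, 2 were above 0 and 8 below at an unadjusted p under 0.05. Ccl3, an inflammatory chemokine, read 1165 and 1202 in WT and 519 and 714 in Flt3L KO, a 1.94-fold fall (adjusted p = 0.0145, and 0.128 without Flt3L KO replicate 1). The related Ccl4 read 290 and 303 in WT and 177 and 226 in Flt3L KO, a 1.48-fold fall (adjusted p = 0.0344; 0.0718 without WT replicate 1 and 0.234 without Flt3L KO replicate 1). Cxcr3, a chemokine receptor, had a difference of -0.41 ± 0.09 (adjusted p = 0.0535), and Cxcl2 one of -0.55 ± 0.13 (adjusted p = 0.0665).

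Genes for sensing and taking up dead cells and microbes included several falls. Of 24 Toll-like and nucleic acid receptors, 2 fell and 0 rose (median 0.02). Tlr3, the receptor for double-stranded RNA in cDC1, read 921 and 1337 in WT and 698 and 683 in Flt3L KO, a 1.61-fold fall (adjusted p = 0.0455). WT replicate 2 was the highest value, and the adjusted p was 0.0572 without it, 0.206 without Flt3L KO replicate 1 and 0.16 without Flt3L KO replicate 2. Cd180, a Toll-like receptor homologue, fell 1.55-fold from 1797 and 1809 to 1100 and 1230 (adjusted p = 0.0265; 0.0698, 0.206 and 0.0615 without WT replicate 1, Flt3L KO replicate 1 and Flt3L KO replicate 2). Of 28 genes of cross-presentation and dead-cell uptake, Timd4 and Cd36 fell and 0 rose (median 0.01). Cd36, a scavenger receptor, read 1063 and 1112 in WT and 712 and 808 in Flt3L KO (adjusted p = 0.0381; 0.0533 to 0.244 without any 1 array).

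The 2 lists of antigen presentation genes held no call in limma. Of 18 MHC class I genes 0 were called, 4 reached an unadjusted p under 0.05, all above 0, and the median was 0.11. Nlrc5, the activator of class I genes, had a difference of 0.31 ± 0.09 (adjusted p = 0.104) on the probe set used, and its other probe sets ranged from 0.17 to 0.71. Of 17 MHC class II genes 0 were called, 5 reached an unadjusted p under 0.05 (3 above 0 and 2 below) and the median was 0.01. Outside these lists, and named after their values were seen, the class I genes H2-Q5 and H2-K2 rose by 0.61 ± 0.11 (adjusted p = 0.0272; 0.0946 and 0.213 without WT replicate 1 and Flt3L KO replicate 1) and 0.38 ± 0.08 (adjusted p = 0.0405; 0.096, 0.206 and 0.147 without WT replicate 1, Flt3L KO replicate 1 and Flt3L KO replicate 2). Class I genes are near copies of each other, so which of them these probe sets read is uncertain. Cd1d1, which presents lipids, fell by 0.55 ± 0.10 (adjusted p = 0.0257; 0.0733 and 0.181 without WT replicate 1 and Flt3L KO replicate 1). Cell cycle genes (47 tested) also had 0 calls, with 5 at an unadjusted p under 0.05 and a median of -0.01, which was -0.14 without WT replicate 1 and 0.14 without WT replicate 2.

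Metabolic lists held few called genes. Hmgcs1, an enzyme early in cholesterol synthesis, rose 1.45-fold from 136 and 156 to 210 and 212 (adjusted p = 0.0197; 0.0806, 0.128 and 0.0948 without WT replicate 1, Flt3L KO replicate 1 and Flt3L KO replicate 2). It was the 1 called gene of 25 in the cholesterol list, of which 21 were above 0 (median 0.14). The glucose transporter gene Slc2a3, in the glycolysis and hypoxia lists, rose by 0.46 ± 0.08 (adjusted p = 0.0254; 0.0695, 0.076 and 0.148 without the same 3 arrays). With Ndrg1, described above, it made 2 rises and 0 falls among 24 hypoxia genes (median 0.05). Slc7a5, a large neutral amino acid transporter in the ATF4 list, rose by 0.39 ± 0.07 (adjusted p = 0.0282; 0.0688, 0.188 and 0.103 without the same 3 arrays). Of 27 cytosolic ribosomal protein genes 2 were above 0 and 0 were called; 5 reached an unadjusted p under 0.05, all below 0, and the median was -0.11. Nnt and Adam11, described above, were the 1 called gene of 35 in the mitochondrial list (median -0.06) and of 19 in the ADAM and metalloprotease list (median 0.08).

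The functional lists not yet described held 1 called gene or none. Of 34 maturation genes, Serpinb6b, an intracellular protease inhibitor, fell by 0.40 ± 0.09 (adjusted p = 0.0494; 0.0624 to 0.305 without any 1 array), and the median was 0.07. Of 39 transcription factors, Relb was the 1 called gene (median 0.05). Lists of cytokines (20 tested), BCL2 family genes (20), integrins (26) and heat shock chaperones (24) had 0 calls in limma, with medians of -0.08, 0.05, -0.01 and -0.06. At an unadjusted p under 0.05 they held 2 above and 4 below 0, 2 and 1, 3 and 1, and 2 and 5. The plot of functional lists shows the medians beside their members.

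**Figure D3:**
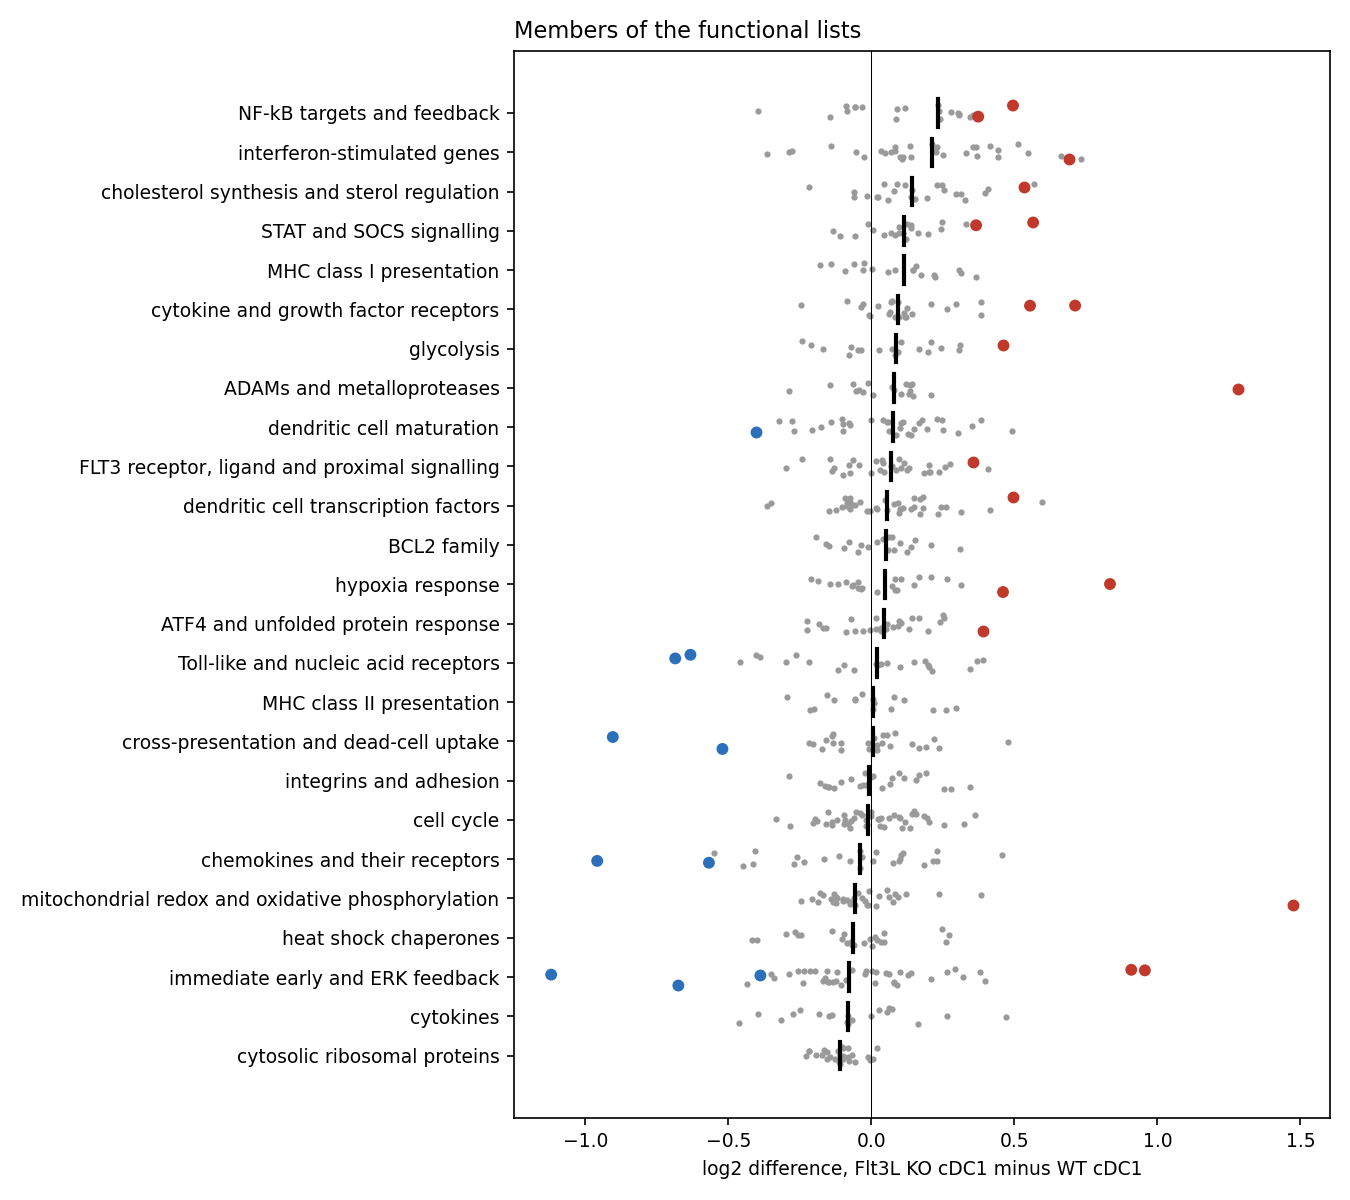
Each point is a tested member of a functional list, placed by its log2 difference between Flt3L KO cDC1 and WT cDC1; red and blue points are called rises and falls (adjusted p under 0.05), grey points are not called and black bars are list medians. Medians run from -0.11 for ribosomal proteins to 0.23 for the NF-kB list, and the called points of the immediate early list lie on both sides of 0.

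Genes of cDC1 identity were then set against genes of cDC2 identity. Of 31 cDC1 markers tested, Cd207, Tlr3 and Cd36 fell and Gpr33 rose, with 11 above 0 and a median of -0.09. Gpr33, a chemoattractant receptor-like gene, read 330 and 322 in WT and 519 and 446 in Flt3L KO (adjusted p = 0.0494, and 0.0635 to 0.299 without any 1 array). Of 33 cDC2 markers, Cd7 rose and 0 fell, with 24 above 0 and a median of 0.11. Sirpa had a difference of 0.39 ± 0.09 (adjusted p = 0.0599), and Irf4, a cDC2 transcription factor, read 114 and 101 in WT and 103 and 130 in Flt3L KO, groups that overlap. The summed intensity of the cDC2 markers was 5761 and 6014 in WT and 6719 and 6427 in Flt3L KO, and 3 of its 33 members lay under the lower quartile on all 4 arrays. In these bulk samples, fewer cells of a type and less RNA per cell cannot be told apart.

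A wider set was taken by the difference between cDC1 and cDC2 on the Flt3 KO arrays, which are not among the 4 compared. Its genes differed there by over 2-fold at an adjusted p under 0.05. That p used the gene variances of the fit to all arrays of the series, the 4 compared included. The same variances were used to call genes in Flt3L KO cDC1. A gene with a small variance was thus more readily chosen and more readily called. The called shares of these sets are therefore not compared with those of all genes tested. Of 420 genes higher in cDC1, 8 rose (1.9%) and 20 fell (4.76%) in Flt3L KO cDC1, with a median of -0.07. Of 495 genes higher in cDC2, 29 rose (5.86%) and 5 fell (1.01%), with a median of 0.09. The median of the cDC1 set moved from -0.13 without WT replicate 1 to -0.01 without WT replicate 2, whereas that of the cDC2 set lay between 0.09 and 0.11 without any 1 array.

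**Figure D4:**
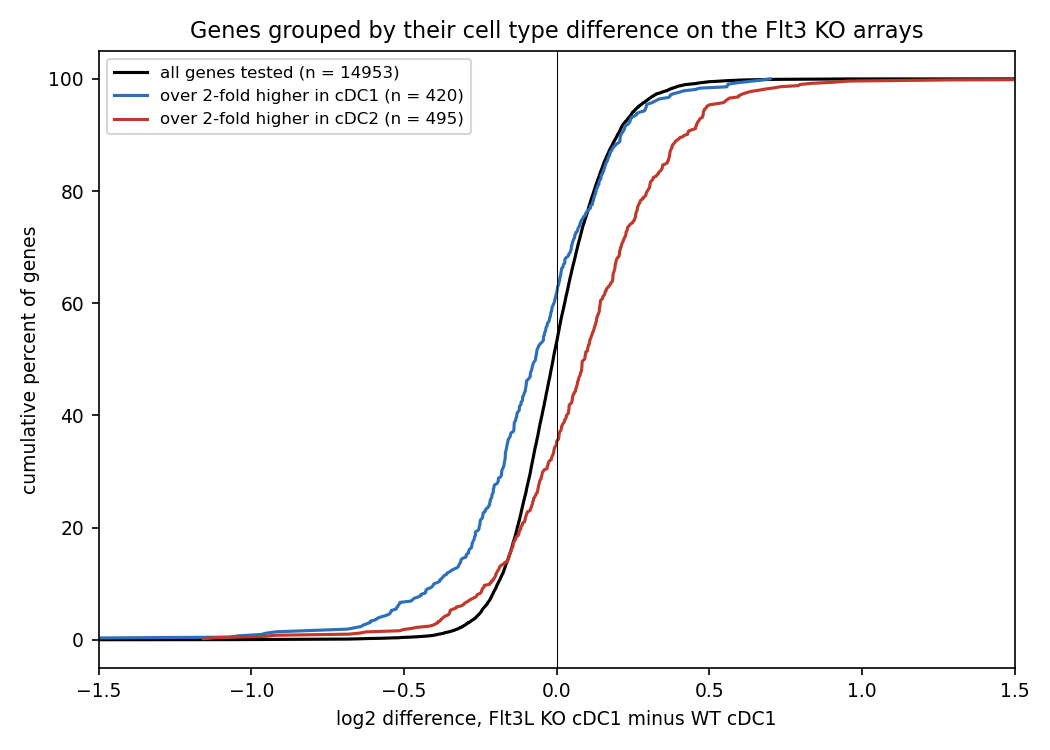
Cumulative percent of genes by log2 difference between Flt3L KO cDC1 and WT cDC1, for all 14953 genes tested (black), the 420 higher in cDC1 than cDC2 on the Flt3 KO arrays (blue) and the 495 higher in cDC2 (red); the axis is limited to 1.5 in both directions, so Clec4b2, Mid1 and Kcnma1 lie outside it. The blue line lies left of the black one at differences below 0 and the red line lies right of it above 0, with medians of -0.07 and 0.09.

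Markers of other spleen cells were read on the same arrays. Summed monocyte markers were 14270 and 15020 in WT and 12170 and 12950 in Flt3L KO; 0 of 11 tested were called, 3 reached an unadjusted p under 0.05, all below 0, and most of the sum came from Nr4a1, Plac8 and Treml4. Summed macrophage markers were 1615 and 1586 in WT and 1400 and 1514 in Flt3L KO; 0 of 16 tested were called, 1 reached an unadjusted p under 0.05 above 0 and 3 below, and the median was -0.04. Summed B cell markers were 1094 and 1094 in WT and 919 and 939 in Flt3L KO. Fcrla was the 1 called of 13 tested and the largest part of that sum in WT, as Cd22 was in Flt3L KO. Cd79a, a defining B cell gene, read 15.8 to 19.2, and was 1 of 3 among 16 members under the lower quartile on all 4 arrays. Cd79b, of the same list, read 76.2 to 94.5, above the array medians of 59.6 to 63. Summed NK cell markers were 808 and 874 in WT and 1094 and 995 in Flt3L KO, through Klrk1, an activating receptor (log2 0.49 ± 0.11, adjusted p = 0.0494; 0.152, 0.288 and 0.0948 without WT replicate 1, Flt3L KO replicate 1 and Flt3L KO replicate 2). Klrd1 also added to the NK sum, at 112 and 139 in WT and 185 and 145 in Flt3L KO. The defining NK gene Ncr1 read 19.7 or less on these arrays, and was 1 of 4 among 12 members under the lower quartile on all 4. Summed pDC markers were 4873 and 4872 in WT and 4984 and 4674 in Flt3L KO, groups that overlap; Cd300c, a member of that list, fell by 0.43 ± 0.09 (adjusted p = 0.0408; 0.0633, 0.159 and 0.17 without WT replicate 2, Flt3L KO replicate 1 and Flt3L KO replicate 2). Procr, an endothelial protein C receptor in the stem and progenitor list, rose by 0.45 ± 0.08 (adjusted p = 0.0285; 0.0988, 0.124 and 0.148 without WT replicate 1, Flt3L KO replicate 1 and Flt3L KO replicate 2), and F2rl2, a thrombin receptor in the platelet list, by 0.40 ± 0.08 (adjusted p = 0.0466; 0.0526 to 0.209 without any 1 array). The part of other cells in these differences was not tested.

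The comparison of Flt3L KO cDC1 with Flt3 KO cDC1 asks where loss of the ligand differs from loss of the receptor, without use of the WT arrays. It shares its Flt3L KO arrays with the comparison above. Of 14953 genes limma called 132 (0.883%), with 33 higher (0.221%) and 99 lower (0.662%) in Flt3L KO. Flt3 itself was 6.71-fold higher in Flt3L KO. Mid1 was higher by 3.02 ± 0.23 (adjusted p = 4.81e-05), Ndrg1 by 0.87 ± 0.10 (adjusted p = 0.000977), Ffar4 by 0.69 ± 0.11 (adjusted p = 0.0165) and Adam11 by 0.64 ± 0.08 (adjusted p = 0.00476). Nnt differed by -0.10 ± 0.09 (adjusted p = 0.654), Cd69 by 0.19 ± 0.13 (adjusted p = 0.535), and Plk2 by 0.21 ± 0.12 (adjusted p = 0.416). Clec4b2 was lower by a log2 difference of -2.18 ± 0.20 (adjusted p = 0.000262), Hpgd by -1.22 ± 0.11 (adjusted p = 0.000394), Fcrla by -1.24 ± 0.13 and Adgrl3 by -1.26 ± 0.13 (adjusted p = 0.000613 for both). Dusp6 was lower by -0.82 ± 0.16 (adjusted p = 0.0363), Ccl3 by -1.06 ± 0.16 (adjusted p = 0.0106) and Cd207 by -0.98 ± 0.18 (adjusted p = 0.0306). Of the genes named here, Flt3, Mid1, Ndrg1, Clec4b2, Hpgd, Fcrla and Adgrl3 kept their calls without each of the 4 arrays. Adam11 had an adjusted p of 0.0791 without Flt3 KO replicate 2 and 0.0838 without Flt3L KO replicate 1. Ffar4 (0.0666 to 0.147) and Dusp6 (0.0862 to 0.264) lost their calls without any 1 array. Ccl3 and Cd207 lost theirs without Flt3 KO replicate 1 (0.0934 and 0.119), Flt3 KO replicate 2 (0.117 and 0.201) and Flt3L KO replicate 1 (0.116 and 0.241). The count of calls was 20 and 16 without Flt3 KO replicates 1 and 2, and 17 and 63 without Flt3L KO replicates 1 and 2.

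Flt3 KO cDC1 against WT cDC1 shares the WT arrays, so its values are given side by side without a measure of likeness. There 12 genes were called (0.0803%). Dusp6 differed from WT by -0.29 ± 0.16 in Flt3 KO cDC1 and -1.12 ± 0.16 in Flt3L KO cDC1, Clec4b2 by 0.40 ± 0.20 and -1.78 ± 0.20, and Rtn1 by -0.21 ± 0.09 and -1.16 ± 0.09. Cd69 differed by 0.77 ± 0.13 and 0.96 ± 0.13, and Fcer1g, a signalling chain of Fc receptors named after its values were seen, by 0.59 ± 0.09 and 0.60 ± 0.09. Fcer1g was called in both (adjusted p = 0.0265 and 0.00648), with an adjusted p of 0.0983 in Flt3L KO cDC1 when Flt3L KO replicate 1 was left out. In Flt3 KO cDC1 its adjusted p was 0.196 without WT replicate 1 and 0.276 and 0.239 without Flt3 KO replicates 1 and 2.

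Whether ligand loss acted alike in the other branch was tested by the interaction, the Flt3L KO effect in cDC2 minus that in cDC1. It was called for 74 of 14953 genes (0.495%), 37 above 0 (0.247%) and 37 below 0 (0.247%). Cd36 showed opposite directions: it fell in cDC1 from 1063 and 1112 to 712 and 808 and rose in cDC2 from 51.1 and 57.7 to 144 and 124 (difference of effects 1.82 ± 0.15, adjusted p = 0.000317). Macrophage markers moved with it in cDC2: of 16 tested, 9 rose and 1 fell in Flt3L KO cDC2 (median 0.79), where 1.04% of all genes rose and 0.91% fell. Their summed intensity was 2630 and 2603 in WT cDC2 and 4505 and 3931 in Flt3L KO cDC2. The complement gene C1qa read 135 and 157 in WT cDC2 and 790 and 569 in Flt3L KO cDC2 (adjusted p = 1.7e-05). Adgre1, which encodes F4/80, was lower in Flt3L KO cDC2, at 601 and 617 against 996 and 943 (adjusted p = 0.00479; 0.0574 and 0.0561 without WT cDC2 replicate 1 and Flt3L KO cDC2 replicate 1). The interaction was called above 0 for C1qa, C1qb, Vcam1, Mertk, Ms4a7 and Apoe, 6 of the 16 (median 0.90), and these 6 kept that call without each of the 8 arrays. The part of macrophages in the cDC2 values and in the interaction was not tested.

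Dusp6, Clec4b2 and Fcrla fell in cDC1 and had no change in cDC2 that passed the test. Dusp6 read 253 and 283 in WT cDC2 and 390 and 287 in Flt3L KO cDC2, a difference of 0.32 ± 0.16 against -1.12 ± 0.16 in cDC1 (difference of effects 1.44 ± 0.22, adjusted p = 0.0148). Clec4b2 differed by -0.23 ± 0.20 in cDC2 (difference of effects 1.55 ± 0.28, adjusted p = 0.0332), and Fcrla by 0.31 ± 0.13 (1.26 ± 0.18, adjusted p = 0.00866). Adam11 rose in both branches, by 1.28 ± 0.08 in cDC1 and 0.39 ± 0.08 in cDC2, and the effects differed (adjusted p = 0.00693). Mid1 and Nnt rose in cDC2 by 1.89 ± 0.23 and 1.22 ± 0.09, and their effects did not differ past the threshold (difference of effects -0.51 ± 0.32 and -0.25 ± 0.12, adjusted p = 0.475 and 0.371). Timd4, Hpgd and Adgrl3 also fell in cDC2, by 0.65 ± 0.11, 0.57 ± 0.11 and 0.99 ± 0.13. Timd4 had an adjusted p of 0.0959 in cDC2 without WT replicate 1 and 0.0634 without Flt3L KO replicate 2, Hpgd 0.226, 0.0668 and 0.178 without WT replicate 1, Flt3L KO replicate 1 and Flt3L KO replicate 2, and Adam11 0.138 to 0.225 without any 1 cDC2 array. The interaction calls of Cd36 and Adam11 held without each of the 8 arrays. That of Fcrla had an adjusted p of 0.0546 without WT cDC2 replicate 1, that of Dusp6 0.0854 without the same array and 0.0551 without Flt3L KO cDC2 replicate 1. That of Clec4b2 was lost without 5 of the 8 arrays, with 0.133 without WT cDC2 replicate 2 as the highest value. The number of interaction calls ranged from 20 without WT cDC2 replicate 1 to 484 without WT cDC1 replicate 2, and was 25 without WT cDC2 replicate 2, 25 without Flt3L KO cDC1 replicate 1 and 34 without Flt3L KO cDC2 replicate 1.

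**Figure D5:**
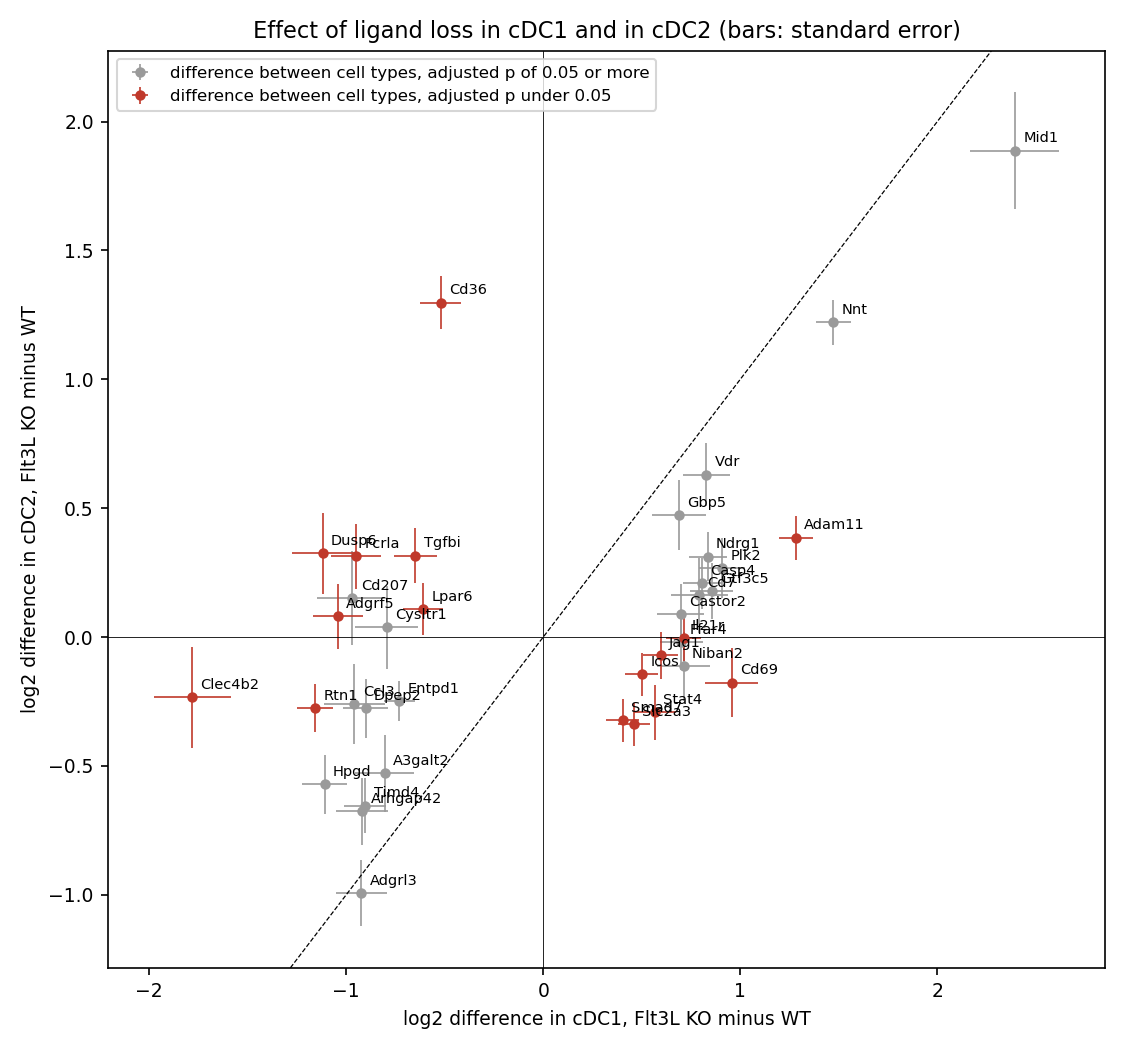
Log2 difference between Flt3L KO and WT in cDC1 (horizontal) and in cDC2 (vertical) for the 15 largest rises and falls in cDC1 and other named genes with a called difference between cell types; bars are the SE, 2 arrays per group, and the dashed line marks equal effects. Nnt and Mid1 lie near that line, while Cd36 lies at -0.52 in cDC1 and 1.30 in cDC2.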

How the data were processed

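RNA from sorted spleen cells was labelled with a whole-transcript expression kit and hybridised to GeneChip gene arrays, per the labels' protocols. The authors deposited 1 intensity per probe set and array on a linear scale, per the file's values; how they were summarised and normalized was not given in the sources used here. Of 30177 probe sets, 21789 had exactly 1 symbol; the one with the highest mean stood for each of 19938 genes. A filter dropped the dimmest genes (a share of 0.25 by mean log2 value; Flt3 and Flt3l were kept), and 14953 were tested. Log2 intensities of all 12 arrays were fitted in limma 3.58.1 (R 4.3.3, statmod 1.5.0) with 1 mean per group and 6 residual degrees of freedom, without a block, and p-values were adjusted by Benjamini-Hochberg over all genes tested. The code was tested on simulated data. With 2 arrays a group, the number of arrays limits precision (median SE 0.0937). The labels do not say whether equal replicate numbers share mice.

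Named genes are Flt3 and Flt3l, the 15 largest called rises and falls with groups that do not overlap (predicted, clone-named, small RNA and receptor segment genes left out), called members of 42 lists, up to 4 members of a list by p, and 12 identity genes. The members and lists were chosen with earlier results of these data known. Alternatives covered normalization, the filter on dim genes, the variance prior, probe set averaging, the arrays fitted, a replicate block, array weights and each array left out in turn, where the lone array of a group is assumed to vary like the other groups.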

Additional observations from a re-analysis of the deposited data

Results flagged for a closer look

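In these genes, which were called in cDC1, the effect of ligand loss differed between cDC2 and cDC1 by the interaction test in limma (adjusted p under 0.05); each value is the log2 effect in cDC2 minus that in cDC1. Among surface receptors it was 1.82 for Cd36, 1.55 for Clec4b2, 1.26 for Fcrla, 1.12 for Adgrf5 and 0.72 for Lpar6, a lysophosphatidic acid receptor. Dusp6 had 1.44, Rtn1 0.88 and Tgfbi, an extracellular matrix gene, 0.97. Below 0 were the activation antigen Cd69 (-1.13), Adam11 (-0.90), Stat4 (-0.86), the glucose transporter Slc2a3 (-0.80), Smad7, an inhibitor of TGF-beta signalling (-0.72), Il21r (-0.72), the Notch ligand Jag1 (-0.67) and the costimulatory receptor Icos (-0.65). Lpar6, Tgfbi, Smad7, Jag1 and Icos were named after their values were seen. Of these 16 genes, Cd36 and Adam11 kept the call without each of the 8 arrays in turn. The other 14 lost it without WT cDC2 replicate 1, with adjusted p values from 0.0546 (Fcrla) to 0.181 (Lpar6). Of these 14, 10 also lost it without WT cDC2 replicate 2, 10 without Flt3L KO cDC1 replicate 1, 10 without Flt3L KO cDC2 replicate 1, 7 without Flt3L KO cDC2 replicate 2, 5 without Flt3L KO cDC1 replicate 2 and 2 without WT cDC1 replicate 1.

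Probe sets without a gene symbol, which are outside the gene comparison, also held calls: 43 of 4302 (1%) between Flt3L KO cDC1 and WT cDC1, 37 higher and 6 lower. In the same fit 101 of 16311 probe sets with 1 symbol were called (0.619%), and 5 of 1013 with several (0.494%).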

How the results depend on the processing

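The number of calls depended on the processing. For every gene called between Flt3L KO and WT cDC1 the groups did not overlap, so leaving out 1 array could not reverse its direction. For Flt3L KO cDC1 against WT cDC1, 178 calls became 98 with no filter on dim genes, 363 with a share of 0.5 left out, 545 with a trended and robust variance prior, 6 with only the arrays compared and 41 with array weights; leaving out 1 array gave 25 to 606. For Flt3L KO cDC1 against Flt3 KO cDC1, 132 calls became 86, 267, 401, 78 and 571 under the same settings, and 16 to 63 without 1 array. For the difference of effects, 74 calls became 118 with a share of 0.5 left out, 208 with the trended prior, 37 with only the arrays compared and 47 with array weights, and 20 to 484 without 1 array. The cause of these differences was not tested. Quantile normalization and the mean of probe sets kept all 3 counts within 1.5 times. With the replicate number as a block the first comparison had 118 calls. Equal numbers of WT and Flt3L KO cDC1 deviated in opposite directions (r = -0.131 over genes). With 1 replicate difference per group, this cannot show whether equal numbers share a batch. Equal numbers of cDC1 and cDC2 within a genotype deviated together (r = 0.159 in WT, 0.146 in Flt3L KO and 0.0885 in Flt3 KO); the labels do not say that they share mice. With a replicate block within each genotype, an alternative chosen after seeing the data, the difference of effects had 68 calls, 52 of them among the 74. With the WT cDC1 numbers crossed in the block, an alternative chosen after seeing the data, Flt3L KO cDC1 against WT cDC1 had 181 calls. With 1 array left out, the log2 difference of 5 uncalled genes changed sign within its range: Irf4 (-0.055 to 0.28), Cd8a (-0.00933 to 0.036), Siglech (-0.38 to 0.39), Zbtb46 (-0.24 to 0.095) and Itgae (-0.35 to 0.028). Dim probe sets carry background, so their folds may be understated.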

Other observations

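Other called genes, named after their values were seen, fell or rose by moderate amounts in Flt3L KO cDC1. Rcan1, a regulator of calcineurin, fell by 0.72 ± 0.11 on the log2 scale (adjusted p = 0.00681 in limma, and 0.0983 without Flt3L KO replicate 1). Among rises, Ptgs2, the inducible cyclooxygenase, differed by 0.55 ± 0.12 (adjusted p = 0.0494; 0.159, 0.187 and 0.2 without WT replicate 1, Flt3L KO replicate 1 and Flt3L KO replicate 2). Hpgd, which breaks down prostaglandins, fell, as described above. A link between these genes was not tested. Sema4a, a semaphorin, rose by 0.45 ± 0.08 (adjusted p = 0.0196; 0.0655, 0.124 and 0.0948 without the same 3 arrays), and Plxnc1, a semaphorin receptor, by 0.37 ± 0.08 (adjusted p = 0.0447; 0.0599 to 0.201 without any 1 array).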
